A study of Mus musculus with 10 samples.

Results

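The receptors for acetylcholine and the monoamines were examined in visual cortex of young mice after removal of an eye. The members were all probe sets, the groups of oligonucleotides that report a transcript on the array, whose single gene symbol began with the stem of a muscarinic (Chrm), nicotinic (Chrn), serotonin (Htr), adrenergic (Adra, Adrb), dopamine (Drd), histamine (Hrh) or adenosine (Adora) receptor family. This gave 33 probe sets of 28 genes, out of 8251 named genes on the array. No named probe set carried an Adora or Adrb symbol, so adenosine and beta-adrenergic receptors were not analysed here. Each gene was read from its probe set with the highest mean signal over the 10 arrays. All animals were wild-type C57Bl6 mice. An eye was removed at postnatal day 14, and visual cortex was taken after 4 days, at postnatal day 18. Cortex opposite the missing eye, which loses its crossed retinal input, gave 5 deprived samples, cortex on the same side gave 5 non-deprived ones, and each was hybridised to its own array. Both groups thus come from enucleated animals, and no intact animal is among them. Samples were described as pooled, the protocol names 4 mice, and how these map to the 10 samples is not stated, so the p-values reflect only how these samples scatter, which may be partly technical.

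Acetylcholine, noradrenaline, dopamine, serotonin and histamine reach the cortex through long axons from small nuclei of the basal forebrain, brainstem and hypothalamus. Cortical cells make the receptors, while most of the enzymes and transporters of these transmitters are made in the distant cell bodies. Nicotinic receptors and the serotonin receptor of the Htr3 genes are ion channels, and the other members are G-protein-coupled receptors that act through Gs, Gi or Gq on cyclic AMP or phospholipase C. In visual cortex the cholinergic and noradrenergic systems are known as modulators of arousal, attention and plasticity after loss of vision in an eye.

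Of the 28 receptor genes, 18 had a signal above background in both hemispheres, and none of the 15 that were bright enough to test passed the test for a difference between deprived and non-deprived cortex. Signals are MAS5 intensities in arbitrary units. The background of each array was taken as the 90th percentile of 15 probe sets against bacterial transcripts, and a gene counted as above background in a group when it exceeded this on at least 4 of 5 arrays. The background lay between 30.6 and 76.1, with means of 57.3 ± 17.7 (SD, n = 5) on deprived and 43.6 ± 8.42 (SD, n = 5) on non-deprived arrays. A two-sided exact permutation test did not separate the groups (p = 0.190), though deprived replicates 2, 4 and 5 lay above every non-deprived array. By the same measure 67.8% of all 12422 probe sets were above background in both groups. This share counts every probe set, while each receptor gene was read from its brightest one. Muscarinic Chrm1, neuronal nicotinic Chrna6 and Chrna7, muscle-type nicotinic Chrne and Chrng, 8 of 11 serotonin receptor genes, Drd2, Drd4, Adra2c, Hrh1 and Hrh2 were above background in both. Chrm4, Chrnd, Htr1b and Adra1b met the rule in the deprived group alone, on 4 or 5 arrays against 2 or 3 non-deprived ones. Drd3 met it in the non-deprived group alone, on 4 arrays against 2, and the other 5 genes met it in neither. How many of all probe sets met the rule in a single group was not counted, so this split is not read as a difference between hemispheres. Signals of different probe sets are not on a common scale, so the genes are not ranked against each other.

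**Figure D1:**
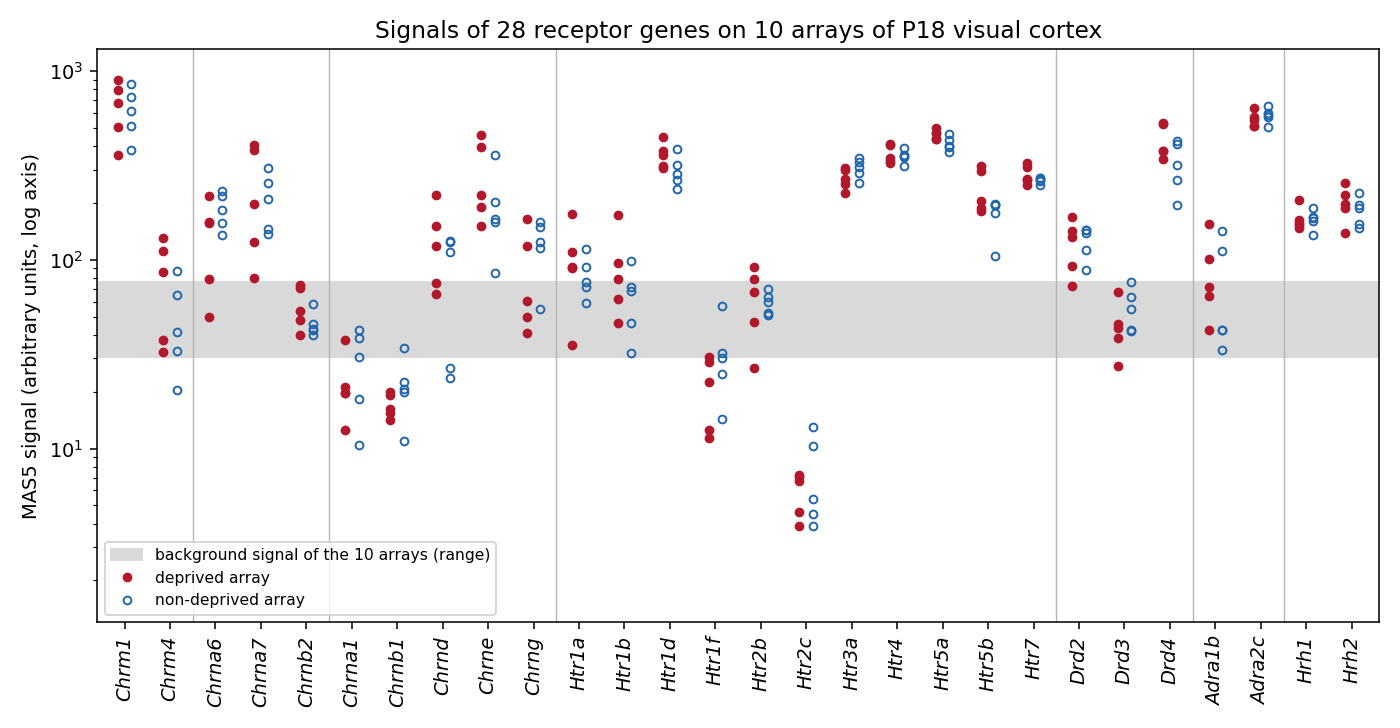
MAS5 signal (log axis) of the 28 receptor genes, ordered by receptor class, on 5 deprived arrays (filled) and 5 non-deprived arrays (open). The grey band spans the background signals of the 10 arrays, 30.6 to 76.1. Chrm1 and Adra2c lay above the band on all 10 arrays, Htr2c lay below it on all 10, and the 2 groups overlapped for every gene.

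Differences were estimated on log2(signal + 16) with limma over the 7453 probe sets whose mean passed the 40th percentile, a signal of about 115. None of the 15 tested receptor genes passed a Benjamini-Hochberg adjusted p of 0.05, where 0% of all tested probe sets passed, and their adjusted p-values lay between 0.9916 and 0.9982. Among them 1 of 15 had an unadjusted p under 0.05, against 4.79% of all tested probe sets. This count ran from 0 to 2 over the alternatives, with 0 without non-deprived replicate 2, non-deprived replicate 5 or deprived replicate 5, and 2 without non-deprived replicate 3 or deprived replicate 2, 3 or 4. No member had 2 groups that did not overlap, against 0.953% of all tested. The median of the 15 estimates was 0.04, with 10 above 0 and 5 below, and 52% of all tested probe sets had an estimate above 0, with a median of 0.0066. The 95% interval stayed within a 2-fold difference in either direction for 13 of the 15 genes and within a 1.5-fold difference for 10.

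**Figure D2:**
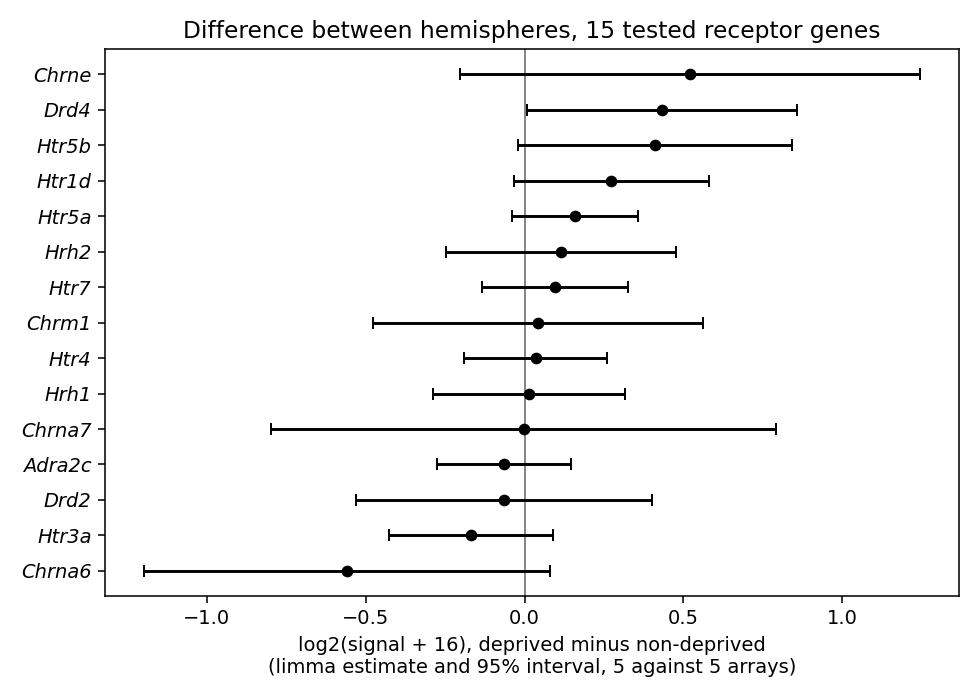
Difference between deprived and non-deprived cortex on the log2(signal + 16) scale for the 15 tested receptor genes, with 95% intervals from limma. The estimates ran from -0.56 for Chrna6 to 0.52 for Chrne, and the interval of Drd4 alone did not include 0, with a lower bound of 0.0080 before any adjustment for multiple tests.

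Among acetylcholine receptors, Chrm1 encodes a Gq-coupled muscarinic receptor of cortical excitatory neurons. Its signals in deprived replicates 1 to 5 were 892, 359.6, 502, 793 and 677. In non-deprived replicates 1 to 5 they were 729, 382, 511, 851 and 614. Both groups spread over more than 2-fold and overlapped almost fully, with a log2 difference of 0.04 ± 0.24 (SE) and a 95% interval from -0.48 to 0.56. Chrm4, a Gi-coupled muscarinic receptor, was above background in the deprived group by the counting rule and not in the non-deprived group. Its signals ran from 32.4 to 130.0 in deprived and from 20.3 to 87.6 in non-deprived arrays, so the groups overlapped, and it was too dim to test.

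Chrna7 encodes the subunit of a calcium-permeable neuronal nicotinic receptor. Its signals were 197, 124, 383, 80.0 and 406 in deprived replicates 1 to 5 and 254, 145, 209, 138 and 307 in the non-deprived ones. Deprived arrays held both the lowest and the highest values. The log2 difference was -0.0028 ± 0.37 (SE), and its interval, from -0.80 to 0.79, was so wide that a 1.5-fold difference in either direction lies within it. Chrna6, a subunit found in receptors of catecholamine neurons and retinal ganglion cells, had deprived signals of 216, 78.9, 156, 49.9 and 158. The non-deprived signals were 218.5, 232, 135, 183 and 156. Deprived replicates 2 and 4 lay below every non-deprived array, while the others fell within the non-deprived range. The log2 difference of -0.56 ± 0.30 (SE) was the most negative of the 15 estimates and did not pass (limma adjusted p = 0.992). Chrnb2, the beta subunit of the common heteromeric neuronal receptors, was above background in neither group, at 39.8 to 73.8 in deprived and 39.7 to 58.3 in non-deprived arrays.

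The subunits of the muscle receptor, which carries transmission at the neuromuscular junction, were mostly dim. Chrna1 and Chrnb1 were above background in neither group, with means of 22.2 and 17.0 in deprived and 28.1 and 21.7 in non-deprived arrays. Chrnd was above it in the deprived group only, with signals from 66.2 to 219 against 23.5 to 125, and its neighbour on the chromosome, Chrng, was above it in both. Chrng had signals of 60.7, 119, 40.8, 165 and 49.9 in deprived and 124, 115.5, 148.5, 158 and 54.9 in non-deprived arrays. The groups overlapped on this probe set, and also on its second probe set (58.1 to 99.0 against 64.0 to 117.5). Chrne was tested on a probe set of relaxed design rules, with signals of 460.3, 151, 190.1, 394 and 221 in deprived arrays. In non-deprived arrays they were 84.6, 203, 359, 159 and 165. The difference of 0.52 ± 0.34 (SE) on the log2 scale was the highest of the 15 and did not pass (limma adjusted p = 0.992). Its other probe sets were dimmer and were not tested. The brighter of these had means of 96.7 in deprived and 74.5 in non-deprived arrays and was above background in the deprived group only. The dimmest, at 18.4 and 12.5, was above background in neither group.

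Serotonin receptors were the class with the most members, and none of the 6 tested ones passed. The 5 tested G-protein-coupled members (Htr1d, Htr4, Htr5a, Htr5b and Htr7) had estimates above 0, from 0.03 to 0.41 on the log2 scale. The tested ion channel Htr3a had one below 0. Of all tested probe sets, 52% had an estimate above 0. Htr4 turned below 0 when certain single arrays were left out. The untested G-protein-coupled members went both ways, with log2 differences from -0.33 for Htr1f to 0.39 for Htr1b. Htr5a encodes a Gi-coupled receptor. Its signals were 435, 467.5, 500.3, 437.5 and 468 in deprived arrays and 431, 373, 402, 395 and 463 in non-deprived arrays. All 5 deprived arrays lay above the non-deprived median, with overlap at the top of the non-deprived range. The means were 462 ± 26.8 and 413 ± 34.9 (SD, n = 5 each), and the log2 difference was 0.16 ± 0.09 (SE), with an interval from -0.04 to 0.36.

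Its relative Htr5b had signals of 297, 180.4, 187, 204 and 314 in deprived and 195, 104, 194, 176 and 198 in non-deprived arrays. Deprived replicates 1, 4 and 5 lay above all non-deprived arrays, and non-deprived replicate 2 lay far below the rest of its group. The log2 difference was 0.41 ± 0.20 (SE), with an interval from -0.02 to 0.84. Htr1d, a Gi-coupled receptor related to the axonal autoreceptors of serotonin neurons, had signals of 448.5, 315, 359, 307.5 and 375 in deprived arrays. The non-deprived signals were 263, 283, 388, 236 and 316. Non-deprived replicate 3 exceeded every deprived array other than replicate 1, so the groups overlapped, and the log2 difference was 0.27 ± 0.14 (SE), with an interval from -0.03 to 0.58.

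Htr7 and Htr4, Gs-coupled serotonin receptors that raise cyclic AMP, had narrow spreads. Htr7 had signals of 327, 266, 248, 265 and 308 in deprived and 264, 261, 248, 270.2 and 269.9 in non-deprived arrays. The non-deprived arrays lay close together in the lower part of the deprived range, both groups having a lowest value near 248, and the log2 difference was 0.10 ± 0.11 (SE). Htr4, read by a probe set for a group of similar sequences, had signals of 325, 407, 346.5, 332 and 410.1 in deprived arrays. Those of non-deprived arrays were 314, 356, 349.5, 392 and 359.6. The log2 difference was 0.03 ± 0.11 (SE), and both groups covered nearly the same range. The other Htr4 probe sets had deprived means of 64.3 and 10.1 and were above background in neither group. The ion channel subunit Htr3a, a marker of a class of cortical interneurons, had signals of 251, 268, 298, 227 and 307.5 in deprived and 255, 287, 329, 346 and 310.5 in non-deprived arrays. All 5 deprived arrays lay below the non-deprived median of 310.5, and the log2 difference was -0.17 ± 0.12 (SE), with an interval from -0.43 to 0.09.

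Among the serotonin receptor genes that were not tested, Htr1a, the Gi-coupled receptor of pyramidal and raphe neurons, had deprived signals of 175, 90.6, 109.5, 35.5 and 91.2. Its non-deprived signals were 76.2, 59.2, 114, 71.9 and 91.9. The deprived range thus enclosed the non-deprived one. Htr2b, a Gq-coupled receptor, had signals from 26.8 to 91.5 against 51.1 to 70.3. These values lay near the background of the arrays. Htr1b, a Gi-coupled autoreceptor, was above background in the deprived group only, at 46.1 to 173 against 32.2 to 99.0. Htr1f and Htr2c were above background in neither group, and Htr2c, a Gq-coupled receptor abundant in choroid plexus, had signals from 3.9 to 13.0 over all 10 arrays.

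The dopamine receptor gene Drd4 had the smallest p of the 15 tested genes, although Htr5b had a smaller one when replicate numbers were blocked (0.0206 against 0.0414). It encodes a Gi-coupled receptor. Its signals were 524.5, 343, 379, 379 and 531 in deprived and 412, 265, 317, 425 and 194 in non-deprived arrays. All 5 deprived arrays lay above the non-deprived median, but non-deprived replicates 1 and 4 lay above 3 deprived arrays, so the groups overlapped. The means were 431 ± 89.3 and 323 ± 97.7 (SD, n = 5 each). The log2 difference of 0.43 ± 0.20 (SE), or 34.9% higher, had an unadjusted limma p of 0.0464, and its limma adjusted p = 0.992 did not pass.

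Drd2, the Gi-coupled receptor of striatal projection neurons and dopamine neurons, had signals of 73.0, 133, 92.9, 141 and 168 in deprived arrays. In non-deprived arrays they were 143, 87.8, 138, 144.5 and 112. The groups overlapped over most of their range, with a log2 difference of -0.07 ± 0.22 (SE). Drd2 is abundant in striatum, and 3 measured striatal markers were read beside it. Their summed signal was 1232 to 1925 in deprived and 1303 to 1510 in non-deprived arrays, made up mostly of Penk. Penk and Tac1 were above background in both groups, and Rgs9 was not. The part of striatal tissue in the Drd2 values was not tested. Drd3 was above background in the non-deprived group only, at 42.1 to 76.2 against 27.3 to 67.2 in deprived arrays.

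**Figure D3:**
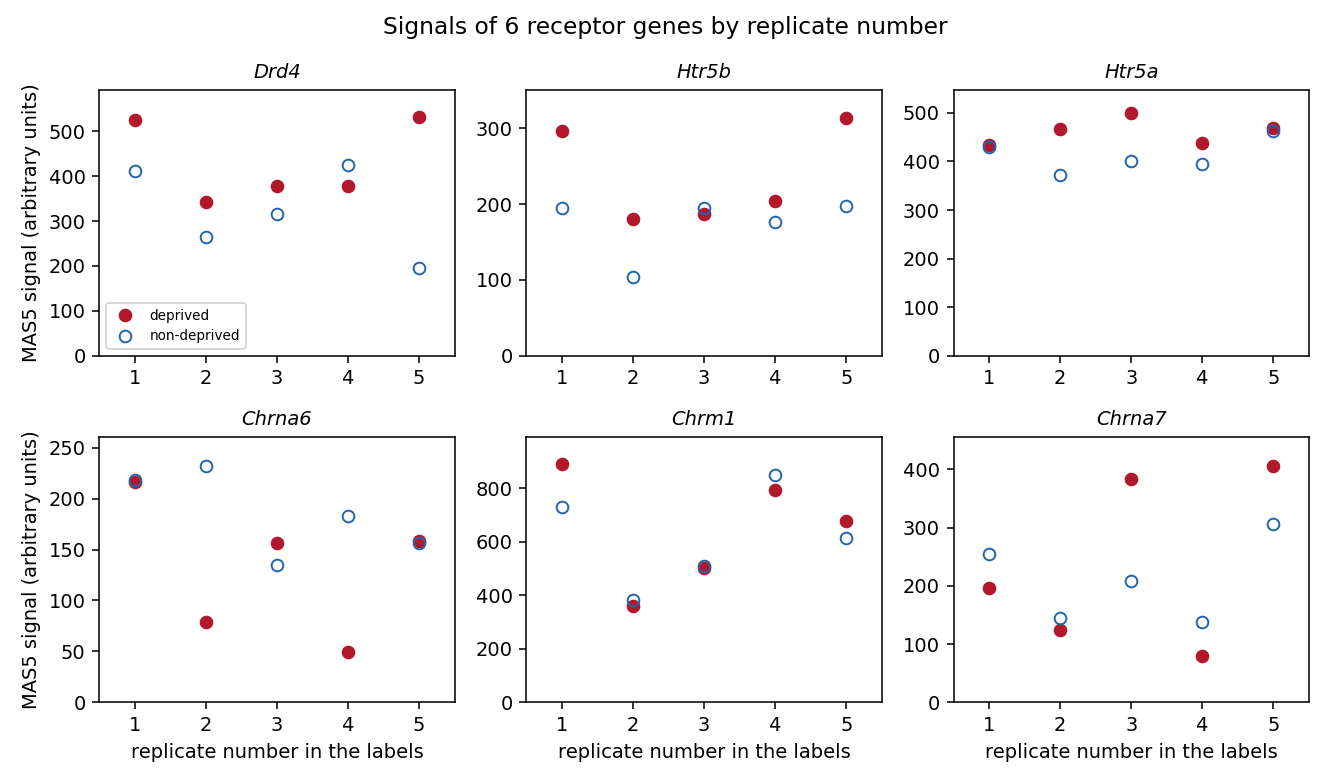
MAS5 signals of 6 receptor genes (Drd4, Htr5b, Htr5a, Chrna6, Chrm1 and Chrna7), with deprived arrays filled and non-deprived arrays open, set out by the replicate number of the labels, which has no order. Drd4 was higher in the deprived array at numbers 1, 2, 3 and 5 and lower at number 4, while Chrm1 differed more between numbers than between groups, from 359.6 to 892.

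Adra2c, a Gi-coupled adrenergic autoreceptor and heteroreceptor, had signals of 571, 512.5, 640.3, 508 and 551 in deprived and 598, 653, 571, 505 and 586 in non-deprived arrays. Both groups covered nearly the same range, and the log2 difference was -0.06 ± 0.10 (SE), with an interval from -0.27 to 0.15. Adra1b, a Gq-coupled adrenergic receptor, was above background in the deprived group only, with signals of 42.7 to 156 against 33.3 to 142, and was not tested. The Gq-coupled histamine receptor Hrh1 had signals of 208.5, 148, 156, 153 and 163 in deprived and 167.5, 161, 165.5, 135 and 188 in non-deprived arrays. Only deprived replicate 1 lay outside the non-deprived range, and the log2 difference was 0.01 ± 0.14 (SE). The Gs-coupled Hrh2 had signals of 220.3, 198.5, 188.5, 138 and 255 in deprived and 188, 155, 146, 195 and 226 in non-deprived arrays. Its groups overlapped, with a log2 difference of 0.11 ± 0.17 (SE).

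The receptor genes differed in their spread between samples. The spread between arrays of a group (SD of the log2 value, pooled over both groups) ran from 0.10 for Htr5a to 0.74 for Chrna7 among the 15 tested genes, with a median of 0.27, against a median of 0.20 over all tested probe sets. The genes of narrow spread, Htr5a, Htr7, Adra2c and Htr4 (0.10 to 0.13), had 95% intervals that lay between 0.827-fold and 1.28-fold of the non-deprived level. That of Chrna6 reached down to 0.436-fold and that of Chrne up to 2.37-fold.

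**Figure D4:**
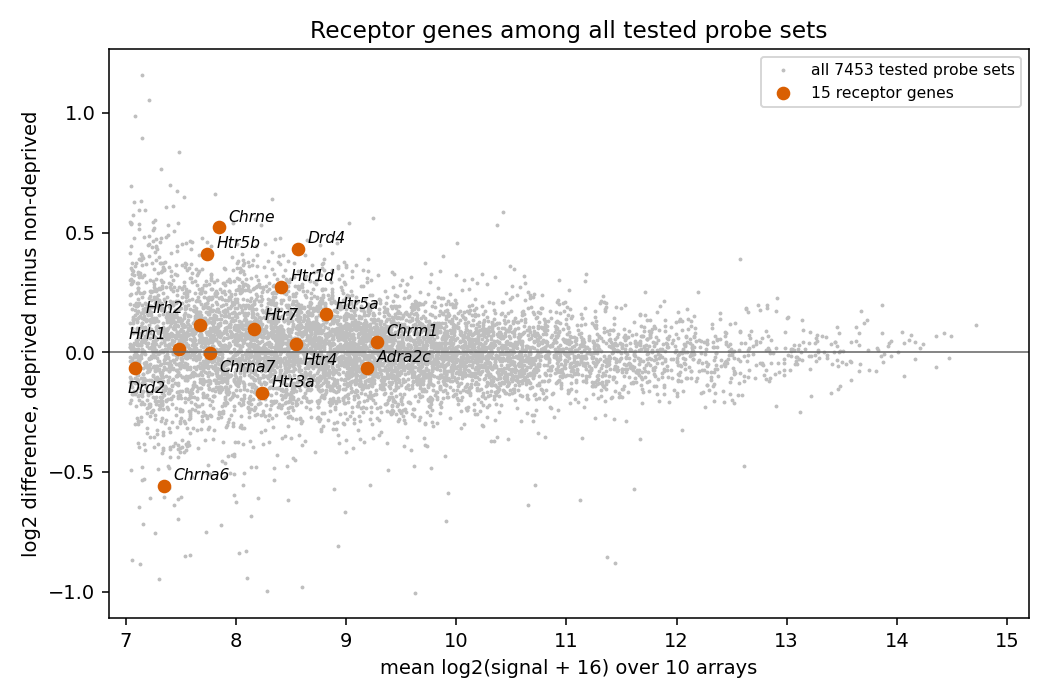
Log2 difference, deprived minus non-deprived, against the mean log2(signal + 16) over 10 arrays for the 7453 tested probe sets (grey), with the 15 tested receptor genes in orange. The receptor genes lay on both sides of 0, 10 above and 5 below, at mean log2 values from 7.09 for Drd2 to 9.28 for Chrm1.

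The other genes of these pathways were read from lists for transmitter synthesis and transport, adenosine metabolism, G proteins, effectors and receptor partners, and no member of any list passed the adjusted threshold in limma. In the first list 10 of 16 measured genes were tested, with a median log2 difference of -0.03. Maoa, the mitochondrial enzyme that breaks down serotonin and noradrenaline, had signals from 316 to 531.5 in deprived and from 498 to 714.5 in non-deprived arrays, with a log2 difference of -0.42 ± 0.14 (SE; limma adjusted p = 0.992). Of the 10 tested genes of this list it alone had an unadjusted limma p under 0.05 (0.00952), against 4.79% of all tested probe sets. The bright members Qdpr, which recycles the cofactor of monoamine synthesis, and Ache, which breaks down acetylcholine, had log2 differences of 0.03 ± 0.10 and -0.13 ± 0.14 (SE). Th, the first enzyme of catecholamine synthesis, had means of 178 ± 104 and 119 ± 39.5 (SD, n = 5 each) and a log2 difference of 0.46 ± 0.30 (SE). Of the 16 measured genes, 11 were above background in both groups, a share close to the 67.8% of all 12422 probe sets. Among the 11 were the enzymes Ddc, Pnmt and Th and the transporters Slc6a2, Slc6a3 and Slc6a4. Tph1, Hdc and Slc18a3, which serve serotonin and histamine synthesis and the vesicular loading of acetylcholine, were not above background in both groups. Bche and Gch1 were not either. Tph2, the relative of Tph1, was on the list but was not measured.

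In the adenosine list, 6 of 9 measured genes were tested, with a median of -0.13 and 1 estimate above 0. Ahcy, which splits S-adenosylhomocysteine into adenosine and homocysteine, had signals from 790.3 to 1091 in deprived and from 1021 to 1408 in non-deprived arrays. Its log2 difference was -0.32 ± 0.11 (SE), with an unadjusted limma p of 0.00962, and it did not pass (limma adjusted p = 0.992). Of the 6 tested genes it alone had an unadjusted p under 0.05, against 4.79% of all tested probe sets. Adk, the kinase that clears adenosine, had one of -0.04 ± 0.17. The 18 tested G protein genes had a median of -0.01, with Gnas, the alpha subunit of Gs, at 0.07 ± 0.08 and Gnao1, that of Go, at -0.04 ± 0.10 (SE). The 19 tested effector genes had a median of 0.03, with the kinase subunits Prkcb and Prkar1a at 0.08 ± 0.08 and 0.05 ± 0.06 (SE). The 8 tested partner genes had a median of -0.0052, with Ly6e and Ly6h, relatives of a nicotinic receptor modulator, at -0.07 ± 0.07 and -0.20 ± 0.10 (SE). None of the tested genes of the last 3 lists had an unadjusted p under 0.05, against 4.79% of all tested probe sets.

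The tissue carried the markers of cortical neurons in both groups, and no marker of a cell type passed the adjusted threshold. All 6 measured neuronal and all 3 measured cortical layer markers were above background, with summed signals of 26288 to 30330 and 6709 to 9283 in deprived and of 27363 to 28942 and 6989 to 9135 in non-deprived arrays. Of 5 measured thalamic markers 4 were above background in both groups, as were 4 of 5 hippocampal ones. Of all 12422 probe sets, 67.8% were. Of 5 choroid plexus markers 4 were not above background. The sum of the 5, made up mostly of Igfbp2, was 731 to 993 in deprived and 788 to 1057 in non-deprived arrays. The sums of the thalamic, hippocampal, microglial, astrocyte, oligodendrocyte, endothelial and erythrocyte markers overlapped between groups. Slc1a2, the astrocytic glutamate transporter, was the only one of these markers with an unadjusted p under 0.05 (log2 0.38 ± 0.14 SE). Of all tested probe sets, 4.79% had one. Fewer cells of a type and less RNA per cell cannot be told apart in such tissue samples. The arrays had median signals of 191 to 209, and arrays of the same group correlated at 0.957 to 0.979 over probe sets, which are no independent points.

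Promoter sequences were available for 22 of the 28 genes, and are shown for 3 of them: Drd4, because it had the smallest p of the tested genes, and Htr7 and Chrna7, because they hold a match to the motif of Egr factors. Egr1, an activity-regulated transcription factor of this motif, had a log2 difference of -0.47 ± 0.10 (SE) in the same comparison without passing over all probe sets (limma adjusted p = 0.36). In the 250 bases before each start, the letters GCGTGGGCG or GCGGGGGCG on either strand were found for 2 of 22 genes, and in 3.06% of all 32851 promoter windows. The cyclic AMP response element TGACGTCA was found for 0 of 22 genes (1.55% of all windows), and the AP-1 letters TGACTCA, on either strand, for 3 of 22 (Adra1b, Chrna1 and Hrh1; 4.46% of all windows). The 22 genes had 28 windows, so the counts by gene and the shares of windows are on unlike bases. A gene with several windows has more chances of a match. A match is a run of letters, not a shown binding site. The sequences are those of RefSeq for GRCm38.p6, written 5′ to 3′ on the strand of the gene, with the Egr letters in capitals. The Drd4 window is chr7:141291768-141292017 on the plus strand, the Htr7 window chr19:36057361-36057610 on the minus strand, and the Chrna7 window chr7:63212527-63212776 on the minus strand.
Drd4: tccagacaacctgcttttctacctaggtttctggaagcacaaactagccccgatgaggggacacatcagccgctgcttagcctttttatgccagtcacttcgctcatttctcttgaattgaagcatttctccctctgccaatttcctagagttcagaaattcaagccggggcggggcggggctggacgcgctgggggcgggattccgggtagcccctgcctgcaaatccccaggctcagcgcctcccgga
Htr7: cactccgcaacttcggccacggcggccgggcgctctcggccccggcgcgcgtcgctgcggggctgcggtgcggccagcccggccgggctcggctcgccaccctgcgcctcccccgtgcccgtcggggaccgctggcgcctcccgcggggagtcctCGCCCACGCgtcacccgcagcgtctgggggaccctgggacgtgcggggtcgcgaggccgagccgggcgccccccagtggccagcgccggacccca
Chrna7: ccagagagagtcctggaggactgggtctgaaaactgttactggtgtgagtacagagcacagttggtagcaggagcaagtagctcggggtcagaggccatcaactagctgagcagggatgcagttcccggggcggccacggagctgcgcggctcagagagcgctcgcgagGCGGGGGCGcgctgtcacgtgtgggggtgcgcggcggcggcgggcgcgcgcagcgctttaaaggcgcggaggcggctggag

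The Htr7 letters lay on the opposite strand and began 95 bases before the start, and those of Chrna7 lay on the same strand and began 81 bases before it. Both genes were above background on all 10 arrays, with log2 differences between hemispheres of 0.10 ± 0.11 and -0.0028 ± 0.37 (SE). The Drd4 window held none of the 3 motifs.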

How the data were processed

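The deposited values are 1-colour MAS5 signal intensities on a linear scale, 1 per probe set and array, scaled to a common level before deposit (mean of each array without the lowest and highest 2%: 500.2 to 500.3). Per the submitters' processing notes the tool was MAS5. No version of it is given in the sources used here, and no detection calls were used. The scaling makes every difference relative to the array's average. The precision is limited by the number of arrays.

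Of 12488 probe sets, 66 controls were left out. Symbols came from the platform annotation, updated through Entrez IDs. Deprived was compared with non-deprived on log2(signal + 16) in limma 3.58.1 (R 4.3.3, lmFit and eBayes with an intensity trend, no covariate) over the 7453 probe sets at or above the 40th percentile of mean log2 signal, with Benjamini-Hochberg adjustment at 0.05. The pseudocount understates differences of dim probe sets. The fit was tested on simulated data. Background and its permutation test were computed in Python 3.11.15.

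The receptor genes and the lists were chosen with earlier results of these data known. Array values are printed for receptor genes above background in both groups (Htr2b by its range), and for pathway genes the 2 brightest of a list and those with an unadjusted p under 0.05. Th, Tph1, Hdc, Slc18a3 and Egr1, and list genes named only by their background status, are exceptions, picked with their values known. Alternatives were other pseudocounts (1 and 49), filters (none, 60th percentile), normalizations, no intensity trend, the replicate number as a block, the mean over a gene's probe sets, other background rules, and leaving out each array. Leave-one-out for the background count, the promoter search and the same-number comparison were added after the values were seen. Same-numbered arrays deviated together with correlations from 0.0222 to 0.227, and the labels do not say that the numbers pair samples.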

Additional observations from a re-analysis of the deposited data

Results flagged for a closer look

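Among the 23 receptor genes above background in at least 1 group, a single array stood apart from the rest of its group in 2 of 46 groups of 5, where chance gives about 1 in 20. For Hrh1, deprived replicate 1 had a signal of 208.5, and the other deprived arrays lay between 148 and 163. For Htr5b, non-deprived replicate 2 had a signal of 104, and the other non-deprived arrays lay between 176 and 198. Why these arrays stand apart was not tested.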

How the results depend on the processing

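None of the tested receptor genes passed an adjusted p of 0.05 in limma under any of 19 alternatives, where the lowest adjusted p of a receptor gene was 0.754 (Htr5b with the replicate block). Over all probe sets the count was 0 under 5 planned settings, 2 with a pseudocount of 49, 6 with the replicate block, 2 when the filter was set to the 60th percentile, and 0 to 5 with single arrays left out: 5 without non-deprived replicate 1 and 1 without deprived replicate 4. With the replicate block no receptor gene passed (0), and the log2 difference of Chrm1 was 0.04 with an SE of 0.09 in place of 0.24. Each non-deprived array correlated best with the deprived array of its own number in 5 of 5 cases, a hint from the data only. At number 5 the margin was small, 0.0222 against at most 0.0118 for the other numbers. The number of receptor genes with an unadjusted p under 0.05 was 0 with no filter, median scaling or no intensity trend, 2 with the replicate block (Htr5b 0.0206, Drd4 0.0414), and 0 to 2 with single arrays left out. The unadjusted p of Drd4 lay between 0.0176 and 0.137 and was under 0.05 in 11 of 19 settings, and its estimate ran from 0.27 to 0.54. Of 15 genes, 10 kept their direction throughout. Chrna7 turned with a pseudocount of 49 (0.019) and with single arrays left out (-0.24 to 0.29), and Hrh1 under quantile normalization (-0.012), median scaling (-0.017) and single omissions (-0.064 to 0.063). Chrm1 (-0.11 to 0.23), Drd2 (-0.18 to 0.079) and Htr4 (-0.0080 to 0.072) turned with single arrays left out. Chrne, Htr4 and Drd2 had no value on the mean of the probe sets, nor had the dimmer genes with the stricter filter. The count above background was 14 with the highest control signal or all 5 arrays, and 13 with the 40th percentile of all probe sets. Chrna6, Chrng, Htr1a and Htr2b dropped out under each of these rules, and Drd2 also under the last. The count was 18 with any probe set, and 14 to 18 with single arrays left out.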

Other observations

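Chrm1 varied between arrays mainly by replicate number. Arrays of the same number differed by 1.02-fold to 1.22-fold, while the 10 arrays spanned 2.48-fold, from 359.6 in deprived replicate 2 to 892 in deprived replicate 1. The largest log2 difference between same-numbered arrays was 0.224 of the whole range for Chrm1, and 0.564% of the 7453 tested probe sets had a lower share (median 0.675). This was chosen after the values were seen. The labels leave unsaid what the numbers stand for, and this was not tested. Chrna7 came next among the receptor genes, with same-numbered arrays within 1.83-fold and a whole range of 5.07-fold. For Drd4, Chrne and Htr3a the largest difference lay between same-numbered arrays.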
